A study of Mus musculus with 8 samples.

Results

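The proteasome genes of the juvenile mouse testis are described here in 8 RNA-seq libraries, 4 from wild type and 4 from Morc2b-/- males at postnatal day 12. Members were taken by gene symbol: all genes whose symbol starts with Psma, Psmb, Psmc, Psmd, Psme, Psmf or Psmg, except Psmc3ip, which encodes a recombination protein. This rule found 50 of the 24651 genes in the count tables. It used no measured value. Psme3ip1 enters by its name only, since it encodes a protein that binds the activator PSME3 and is no part of the particle.

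Each library came from the pair of testes of 1 male on a mixed strain background. The mutant carried a germline deletion of exon 2, which holds the whole Morc2b coding region, in every cell, and the line was derived from 1 targeted embryonic stem cell clone. The sample labels name the controls wild type, while the design text of the series names them Morc2b+/-, and the labels are followed here. The libraries held between 27144796 and 36941755 counts on RefSeq transcripts. Proteasome genes took 0.682% to 0.728% of them.

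The proteasome is the protease that degrades ubiquitin-tagged proteins. Its 20S core is a barrel of stacked rings, with alpha subunits (Psma genes) on the outside forming the gate and beta subunits (Psmb genes) inside, some of which carry the active sites. The 19S cap, built of ATPases (Psmc genes) and other subunits (Psmd genes), binds, unfolds and feeds in tagged proteins, and other activators (Psme genes) can cap the barrel in its place. Germ cells have an alpha subunit of their own: Psma8 encodes a testis form that takes the place of the Psma7 product in spermatocytes. Psme4 encodes PA200, an activator known in the testis for the breakdown of acetylated histones.

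Some libraries stood apart before any comparison. Morc2b, the deleted gene, had 11.7, 16.2, 0.857 and 40.0 CPM (counts scaled to a library total of 1000000, with edgeR's TMM factors) in wild type 1 to 4. The values were 0.323, 0.270, 3.29 and 0.0688 CPM in Morc2b-/- 1 to 4, so the library labelled wild type 3 was below the library labelled Morc2b-/- 3. The summed level of 7 spermatid genes was 147 CPM in wild type 1 and 296 CPM in Morc2b-/- 3, against 2.11 to 33.1 CPM in the other 6 libraries. Wild type 1 also had 250 CPM of epididymal genes (Lcn5, 1 of the 7 listed, was at 0 in every library), against 0.584 to 13.9 CPM elsewhere. In RNA from a whole organ, fewer cells of a type and less RNA per cell cannot be told apart.

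No proteasome gene differed between the genotypes at an adjusted p under 0.05. edgeR's quasi-likelihood test with Benjamini-Hochberg adjustment called 0 of the 44 proteasome genes tested and 0 of all 13507 genes tested (0%), with a smallest adjusted p of 0.9998. At an unadjusted p under 0.05 there was 1 proteasome gene, Psma8, against 249 of all genes (1.84%). limma-voom and DESeq2 called 0 proteasome genes at the adjusted threshold as well, and 0 at the unadjusted one. Over all genes, DESeq2 called 1 (262 at an unadjusted p under 0.05) and limma-voom 0 (226). In 15 of the 44 the log2 fold change (Morc2b-/- over wild type) was below 0, where 49.2% of all genes were, and in 29 it was above 0. The median log2 fold change was 0.017 over the proteasome genes and 0.002 over all genes. None of the 44 had all 4 samples of one genotype above all 4 of the other, against 1.29% of all genes (0.881% lower and 0.407% higher in Morc2b-/-).

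**Figure D1:**
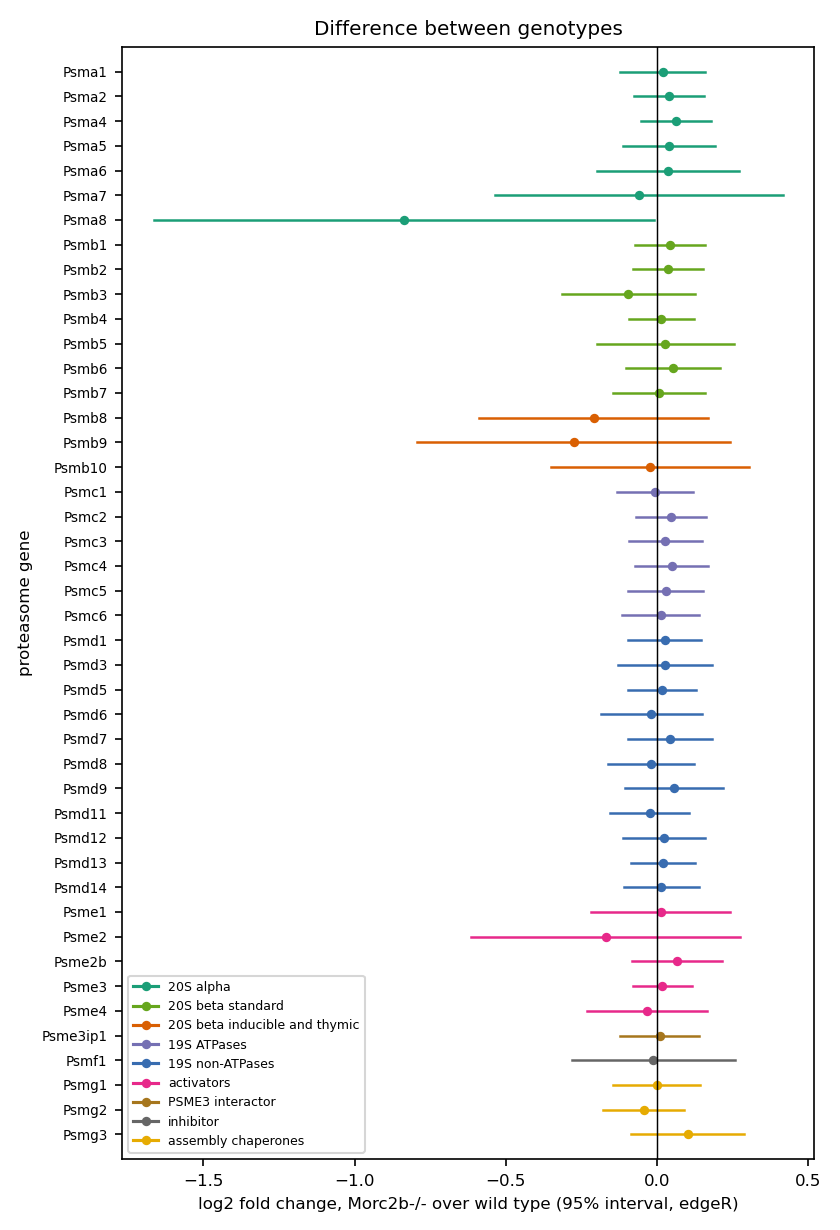
Log2 fold change of CPM between Morc2b-/- and wild type testes (horizontal axis) for the 44 proteasome genes tested (vertical axis), colored by role. Points are edgeR estimates and bars their 95% intervals; the interval of Psma8, from -1.66 to -0.01, is the only one that leaves out 0, and it is not adjusted for the number of genes tested.

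The other 6 genes did not reach the minimum count for testing. They were Psma3 and Psmd4 with 0 to 1 counts per library, Psmb11 with 0 to 6, Psmd10 with 1 to 5, Psmd2 with 3 to 10 and Psmg4 with 2 to 9. Except for Psmb11, each is listed with more than 1 RefSeq transcript, as are Psma6, Psma7, Psme2 and Psmf1. A read that fell on several listed transcripts was left out of the counts as ambiguous, which took 26.8% to 28.8% of the uniquely aligned reads of a library. The counts of these 9 genes therefore cover only reads particular to 1 of their transcripts, and they are no measure of the gene's level.

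The constitutive particle was even from sample to sample. For the 29 tested genes of the 20S core and 19S cap other than Psma7, Psma8 and the inducible beta subunits, the log2 fold change ran from -0.10 (Psmb3) to 0.06 (Psma4). Their 95% intervals stayed between -0.32 (Psmb3) and 0.27 (Psma6). The highest sample exceeded the lowest by a ratio of 1.15 at the median gene, 1.08 for Psmb4 and 1.35 for Psmb5. The SD of log2 CPM over the 8 samples was 0.064 at the median of these genes, from 0.042 (Psmd13) to 0.136 (Psmb3), against 0.191 at the median of all genes tested. All 29 were below that all-gene median, a comparison that was not matched for expression level. Psmb3 was widest with 51.0 CPM in wild type 1 and 38.2 to 41.5 CPM in the other 7 libraries. The transcripts of Psma4, Psmb3 and Psmb5 match the genome elsewhere over 99.7%, 97.4% and 99.9% of their length, and reads that aligned in several places were not counted, so the levels of these genes are uncertain. The same holds in part for Psma5 (79.6%), Psmd11 (54.6%) and Psmc1 (47.8%), and Psma6 is 1 of the genes counted only in part.

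**Figure D2:**
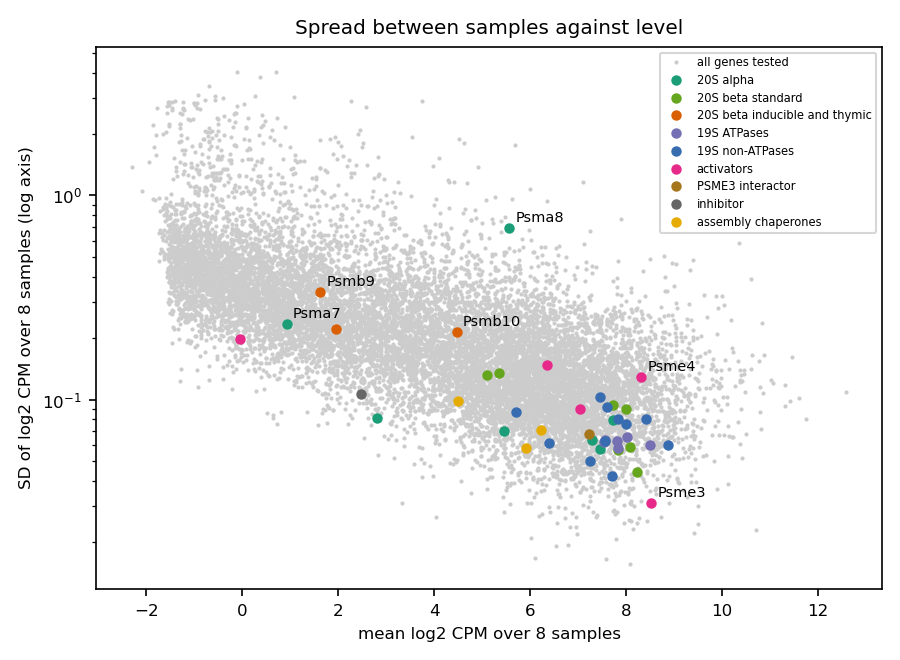
SD of log2 CPM over the 8 samples (vertical, log axis) against mean log2 CPM (horizontal) for all 13507 genes tested (gray) and the 44 proteasome genes (colored by role). Psma8 lies high for its level at 0.691 and Psme3 lowest of the proteasome genes at 0.031.

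Among the alpha subunits, Psma1 had 211, 214, 197 and 228 CPM in wild type 1 to 4 and 202, 218, 210 and 231 CPM in Morc2b-/- 1 to 4. Psma2, the steadiest of them, ran from 165 to 184 CPM. The genotypes overlapped in both genes. Among the standard beta subunits, Psmb4, which is needed for assembly of the rings, had the highest CPM, with 314, 299, 291 and 297 in wild type 1 to 4 and 293, 297, 316 and 307 in Morc2b-/- 1 to 4. The standard catalytic subunits Psmb5, Psmb6 and Psmb7 had log2 fold changes of 0.03 ± 0.10, 0.05 ± 0.07 and 0.01 ± 0.07 (SE).

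All 6 ATPases of the 19S cap lay within log2 fold changes of -0.01 (Psmc1) and 0.05 (Psmc4). Psmc3 had the highest CPM of them, with 373, 356, 365 and 342 in wild type 1 to 4 and 352, 363, 393 and 357 in Morc2b-/- 1 to 4. The widest of the 6 over the samples was Psmc6, from 247 to 279 CPM, and the steadiest Psmc2, from 220 to 247 CPM. Of the other Psmd genes, 11 were tested, 8 with a log2 fold change above 0 and 3 below. Psmd1, a large scaffold subunit, had the highest CPM, with 466, 472, 451 and 480 in wild type 1 to 4 and 446, 502, 461 and 493 in Morc2b-/- 1 to 4. Psmd6 varied most among them, from 155 to 189 CPM, and Psmd13 least, from 202 to 221 CPM. Psmd14, the subunit that removes ubiquitin chains, ran from 177 to 200 CPM. In each of these genes the genotypes overlapped.

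Levels of different genes were compared per kilobase of the longest coding transcript in the GENCODE vM1 annotation, for the 34 proteasome genes with 1 listed transcript and less than 10% of it found elsewhere in the genome. This transcript can be longer than the RefSeq one that was counted, which would lower a value. The standard beta subunits stood highest at means over 8 samples of 268 (Psmb6), 267 (Psmb2), 264 (Psmb1) and 255 (Psmb4) CPM per kb. Their sample ranges overlapped, so these 4 do not separate: Psmb6 ran from 248 to 302 and Psmb4 from 246 to 267 CPM per kb. Psma1 stood at 178, Psme3 at 138, Psme1 at 73.9, Psme4 at 49.4 and Psma8 at 31.2 CPM per kb. Lowest were Psmb10 at 17.6, Psmb8 at 2.38, Psmb9 at 2.31 and Psmb11 at 0.024 CPM per kb.

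Psma8 was the proteasome gene that differed most between samples. It lies at chr18:14864660-14920808 on the plus strand of mm9 (NCBIM37), with 7 exons in its longest coding transcript. Its counts were 1975, 1690, 906 and 3917 in wild type 1 to 4 and 819, 1517, 1204 and 1450 in Morc2b-/- 1 to 4. As CPM these were 53.8, 62.0, 32.4 and 123 in wild type (67.8 ± 38.9, SD, n = 4) and 26.5, 41.0, 34.5 and 49.9 in Morc2b-/- (38.0 ± 9.91, SD, n = 4). Wild type 4 was above every other sample, wild type 1 and 2 were above all 4 mutants, and wild type 3 lay below 3 of the 4 mutants, so the genotypes overlapped. The SD of log2 CPM, 0.691, was wider than that of 95.5% of all genes tested.

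The log2 fold change of Psma8 was -0.84 ± 0.37 (SE), with a 95% interval of -1.66 to -0.01, and its adjusted p in the edgeR fit was 0.9998. On log2 CPM, the exact two-sided permutation p over the 70 ways to divide the samples was 0.171 for a difference of -0.71 (the smallest p possible is 0.0286). The size rested on wild type 4: without it the edgeR log2 fold change was -0.38. It was -1.07 without wild type 3 and -0.79 without Morc2b-/- 3, the libraries whose Morc2b levels crossed. Without wild type 1 and Morc2b-/- 3 together, the libraries highest in spermatid genes, it was -0.89, and none of these fits reached the adjusted threshold.

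Within each genotype, the level of Psma8 ran with the genes of early meiotic prophase. The 8 listed genes of leptotene and zygotene spermatocytes, all detected, summed to 1728, 2336, 1335 and 2452 CPM in wild type 1 to 4. The sums were 1161, 1915, 1431 and 2434 CPM in Morc2b-/- 1 to 4. Sycp1, Sycp3 and Tex101 made up most of each sum, while Hormad1 (0.388 to 1.19 CPM) and Spo11 (0.614 to 1.93 CPM) added little. Prdm9 kept another order, with 80.1, 142, 105 and 92.6 CPM in wild type 1 to 4. Within each genotype Psma8 and the leptotene and zygotene sum put the samples in the same order, 4, 2, 1, 3 from the highest in wild type and 4, 2, 3, 1 in Morc2b-/-. Between genotypes they parted: wild type 4 and Morc2b-/- 4 had sums of 2452 and 2434 CPM, but Psma8 at 123 and 49.9 CPM. This course was not particular to Psma8. Over the 8 samples its Pearson r with the sum (log2 of each) was 0.827, against 0.886 for Psma1, 0.885 for Psmd6 and 0.847 for Psme4. Other proteasome genes ran against the sum, such as Psmc5 (r = -0.880) and Psme2b (-0.909). The 9 listed pachytene genes summed to 235, 213, 124 and 433 CPM in wild type and to 124, 157, 260 and 158 CPM in Morc2b-/-, with wild type 4 highest again. In Morc2b-/- the pachytene sum was highest in sample 3, which was high in spermatid genes, while Psma8 ranked below samples 4 and 2 there. Ldhc, 1 of the 9 pachytene genes, had 103 CPM in that sample and 7.21 to 15.4 CPM in the other mutants. It also had 111 CPM in wild type 4 and 64.7 CPM in wild type 1. The summed spermatogonial genes were lowest in wild type 4, at 480 CPM, and ran from 572 to 699 CPM in wild type 1 to 3. Sums over 6 Sertoli cell genes were 1517 to 1737 CPM in wild type and 1640 to 1792 CPM in Morc2b-/-, and over 5 Leydig cell genes 106 to 565 and 111 to 621 CPM. The part of these markers in the difference between genotypes was not tested.

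**Figure D3:**
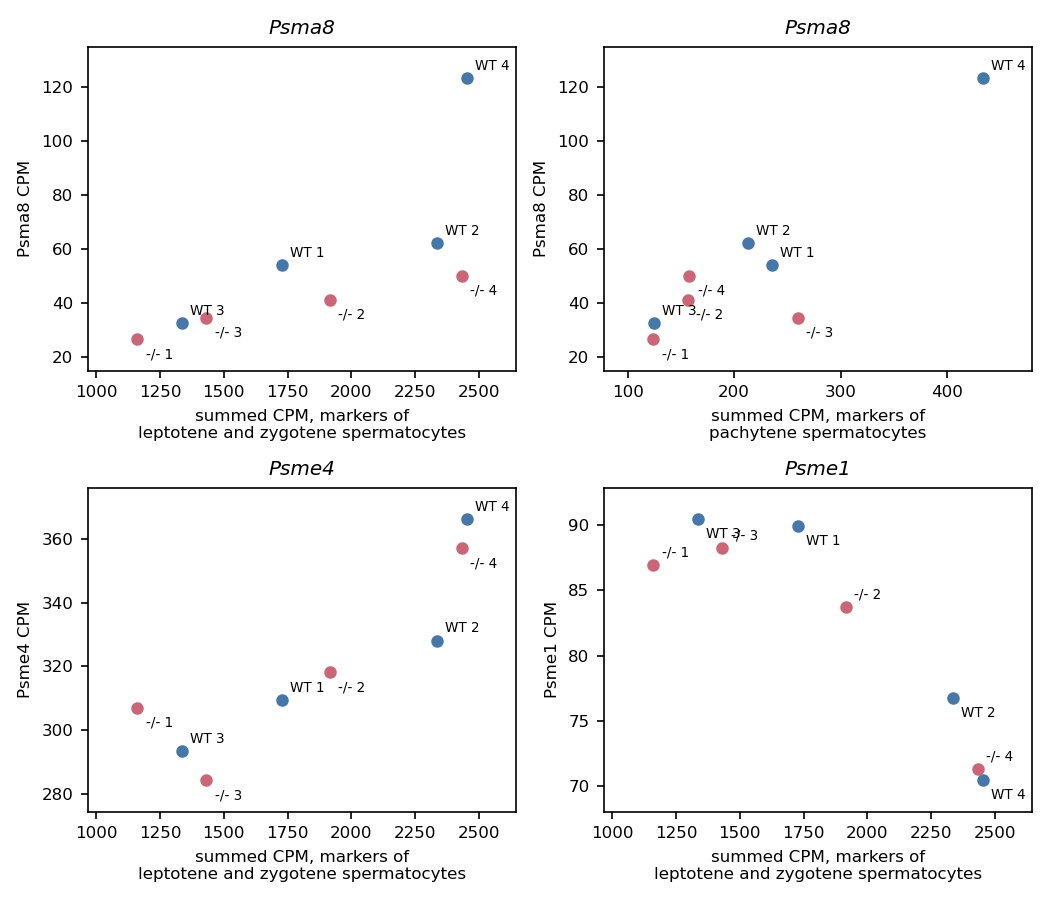
CPM of Psma8, Psme4 and Psme1 (vertical axes, which do not start at 0) against the summed CPM of germ cell stage markers (horizontal axes), 1 point per sample, blue for wild type and red for Morc2b-/-. Within each genotype, Psma8 and Psme4 are highest and Psme1 lowest in the sample with the highest leptotene and zygotene sum, replicate 4.

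Against the general alpha subunit Psma1, Psma8 had the lower level per kilobase in every sample. Against Psma2 it was lower in every sample but wild type 4, where Psma8 had 72.7 and Psma2 66.4 CPM per kb. Per kilobase, Psma8 was 18.1%, 20.6%, 11.7% and 38.3% of Psma1 in wild type 1 to 4 and 9.32%, 13.4%, 11.7% and 15.3% in Morc2b-/- 1 to 4. The samples of wild type 1, 2 and 4 lay above all mutants and wild type 3 lay among them. The partner it replaces, Psma7, is listed with 2 transcripts and kept only 46 to 84 counts per library, so the level of Psma8 relative to Psma7 could not be read. Neither gene has a stretch of 75 bases elsewhere in the genome at 97% identity or more, so their reads are separable.

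Psma7, as far as it was counted, had 1.58, 1.76, 1.64 and 2.64 CPM in wild type 1 to 4 and 1.71, 1.76, 1.75 and 2.10 CPM in Morc2b-/- 1 to 4. It was highest in replicate 4 of each genotype. The log2 ratio of Psma8 to these Psma7 counts differed between genotypes by -0.68, with an exact two-sided permutation p of 0.114 (0.286 adjusted over the 5 ratios computed among proteasome genes), and it is no measure of the 2 subunits' relative levels. Psma1 and Psma2, each with 1 listed transcript, were chosen as the denominator after the Psma7 counts were seen. The log2 ratio of Psma8 to their sum was -2.67 ± 0.73 in wild type and -3.41 ± 0.33 in Morc2b-/- (SD, n = 4), a difference of -0.74 with an exact two-sided permutation p of 0.114.

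**Figure D4:**
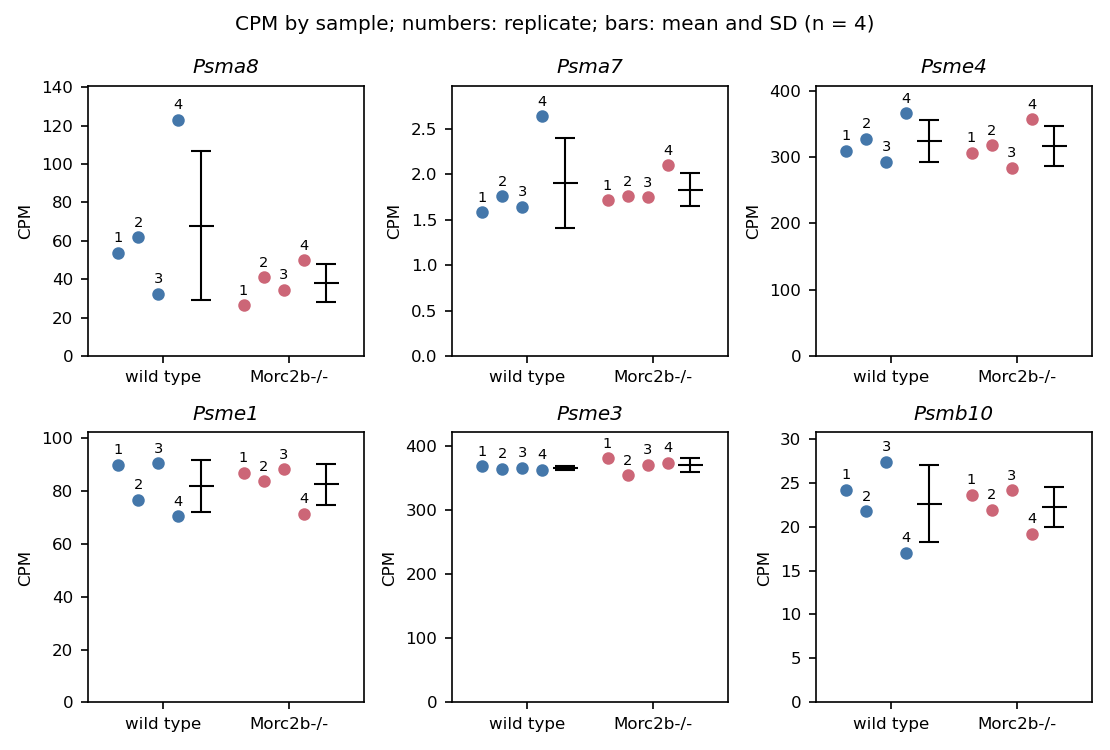
CPM per sample (vertical axes from 0) of Psma8, Psma7, Psme4, Psme1, Psme3 and Psmb10 in wild type (blue) and Morc2b-/- (red) testes. Small digits are replicate numbers and bars the mean and SD of 4 samples; the genotypes overlap in every panel.

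The 5 genes outside the proteasome whose log2 CPM most resembled that of Psma8 over the 8 samples were Prss45 (Pearson r = 0.995), Tcam1 (0.993), 4931428L18Rik (0.989), Tcea2 (0.989) and Tdrd12 (0.987). Tcam1, a testicular cell adhesion molecule, had 51.3, 60.3, 27.7 and 116 CPM in wild type 1 to 4 and 24.8, 34.7, 27.3 and 43.5 CPM in Morc2b-/- 1 to 4. These r describe 8 samples that differ in library depth and in their stage markers, and wild type 4 was the highest sample for all 5.

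No activator passed the adjusted threshold, and the genotypes overlapped in each. Psme4 had 309, 328, 293 and 366 CPM in wild type 1 to 4 (324 ± 31.4, SD, n = 4) and 307, 318, 284 and 357 CPM in Morc2b-/- 1 to 4 (317 ± 30.5, SD, n = 4). The log2 fold change was -0.03 ± 0.09 (SE), with a 95% interval of -0.23 to 0.16 and an adjusted p of 0.9998 in the edgeR fit. The exact two-sided permutation p was 0.686. Replicate 4 of each genotype was highest and replicate 3 lowest, and in the wild type this was the order of the leptotene and zygotene sum as well.

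Psme1 and Psme2 encode the subunits of the interferon-inducible activator PA28. Psme1 had 89.9, 76.8, 90.4 and 70.5 CPM in wild type 1 to 4 and 87.0, 83.7, 88.3 and 71.3 CPM in Morc2b-/- 1 to 4. Its lowest value in each genotype was in replicate 4, where Psme4 was highest, and its log2 fold change was 0.01 ± 0.10 (SE). The summed level of 7 spermatogonial genes was also lowest in these samples, at 480 and 549 CPM, against 572 to 699 CPM in the other 6. Gfra1 and Kit were at or near 0, and whether they lost reads shared between listed transcripts was not tested. Zbtb16, Sohlh1 and Nanos3 were each lowest in replicate 4 of each genotype. Stra8, the largest part of the sum, was lowest in wild type 4 but in Morc2b-/- 1 among the mutants (284 CPM, against 293 in Morc2b-/- 4). Dmrtb1 was not lowest in replicate 4 of either genotype. The part of the spermatogonial sum in the Psme1 values was not tested. The exons of Psme1 overlap those of Fam158a on the opposite strand, and the strand setting of the counting is not given in the sources used here.

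Psme2 kept 23 to 38 counts per library and 0.743 to 1.06 CPM, with a log2 fold change of -0.17 ± 0.20 (SE). Of its transcript, 82.5% matches the single-exon gene Psme2b at 99.37% identity (chr11:48758857-48759650, mm9). Psme2b had 130, 125, 142 and 124 CPM in wild type 1 to 4 and 140, 130, 145 and 127 CPM in Morc2b-/- 1 to 4. Reads of these genes can be exchanged, so neither level is certain. The log2 fold change of Psme2b was 0.07 ± 0.07 (SE).

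Psme3, the activator of the nucleus, was the steadiest proteasome gene. It had 369, 365, 367 and 363 CPM in wild type 1 to 4 (366 ± 2.38, SD, n = 4) and 381, 354, 371 and 374 CPM in Morc2b-/- 1 to 4 (370 ± 11.3, SD, n = 4). Its log2 fold change was 0.02 ± 0.04 (SE). Its SD of log2 CPM ranked within the narrowest 0.385% of all genes tested, which were not matched for expression level. Per kilobase the 3 readable activators kept 1 order in every sample: Psme3 from 133 to 143, Psme1 from 63.4 to 81.3 and Psme4 from 43.8 to 56.4 CPM per kb. These ranges do not overlap.

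Psme4 was also set against the PA28 genes within each library. Psme2, counted only in part, added 0.743 to 1.06 CPM to the 70.5 to 90.4 CPM of Psme1. The ratio is therefore in effect that of Psme4 to Psme1, and no measure of PA200 against PA28. The log2 ratio of Psme4 to the sum of Psme1 and Psme2 was 1.77, 2.07, 1.68 and 2.36 in wild type 1 to 4 and 1.81, 1.91, 1.67 and 2.30 in Morc2b-/- 1 to 4. Replicate 4 was highest in each genotype. The difference was -0.05 with an exact two-sided permutation p of 0.80, and 0.857 when adjusted over the 5 ratios. Genes most like Psme4 over the 8 samples were Uso1 (r = 0.988), Fam135a (0.979), Usp54 (0.979) and Shc4 (0.978), again as a description of 8 samples.

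Promoter sequences were searched for the letters of motifs known at proteasome genes. Nfe2l1, the factor that raises proteasome transcription when the particle is inhibited, binds antioxidant response elements, and interferon factors bind interferon-stimulated response elements. Below are windows of 30 bases from RefSeq promoters (GRCm38.p6 table, 250 bases before to 50 after the start), 5′ to 3′ on the gene's strand, located on mm9 by exact match. Psme4 and Psme1 are shown because their highest and lowest values fell in the same samples, and Psmb6 and Psmb5 as standard catalytic subunits. Capitals mark the match, on either strand, to TGACNNNGC (antioxidant element core in Psme4, Psmb6 and Psmb5) or to GAAA repeated after 2 free bases (interferon element core in Psme1).
Psme4, chr11:30671758-30671787, plus strand: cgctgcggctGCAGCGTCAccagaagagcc
Psmb6, chr11:70338840-70338869, plus strand: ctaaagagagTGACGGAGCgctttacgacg
Psmb5, chr14:55236860-55236889, minus strand: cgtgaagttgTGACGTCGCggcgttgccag
Psme1, chr14:56197330-56197359, plus strand: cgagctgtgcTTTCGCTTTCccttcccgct

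The match ran from base -7 to 1 of the start in Psme4, from -9 to -1 in Psmb6, from -47 to -39 in Psmb5 and from 9 to 18 in Psme1. TGACNNNGC was present in 6 of the 42 proteasome genes with a promoter sequence (14.3%) and in 14.0% of the promoters of 27025 genes. The interferon element core was present in 5 of the 42 (11.9%) against 3.99%, and CCAAT in 15 (35.7%) against 41.1%. Those 5 were Psme1, Psmd4, Psmd9, Psmb3 and Psmg4. No match to it was found for the inducible genes Psmb8, Psmb9, Psmb10 and Psme2, though not every proteasome gene had a promoter sequence. A match describes letters only. As 0 of all 13507 genes tested passed the adjusted threshold, matches could not be set against a difference between genotypes. Psmd4 and Psmg4 were not among the genes tested.

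The interferon-inducible beta subunits Psmb8, Psmb9 and Psmb10 replace the catalytic Psmb5, Psmb6 and Psmb7 in the immunoproteasome, which trims peptides for antigen presentation. Psmb10 had 24.2, 21.8, 27.4 and 17.0 CPM in wild type 1 to 4 and 23.6, 21.9, 24.1 and 19.2 CPM in Morc2b-/- 1 to 4. It was lowest in replicate 4 of each genotype, as Psme1 was, and its log2 fold change was -0.02 ± 0.15 (SE). Psmb8 had 5.26, 3.59, 4.00 and 3.77 CPM in wild type and 3.78, 3.65, 3.01 and 3.95 CPM in Morc2b-/-. Psmb9 had 4.12, 2.57, 4.25 and 2.61 CPM in wild type and 2.59, 2.92, 3.44 and 2.23 CPM in Morc2b-/-. Their log2 fold changes were -0.21 ± 0.17 and -0.28 ± 0.23 (SE), with 95% intervals of -0.59 to 0.17 and -0.79 to 0.24, and the genotypes overlapped in all 3 genes. The Psmb8 value rested on wild type 1: it was -0.075 without that library and -0.002 without wild type 1 and Morc2b-/- 3. Psmb9 was -0.17 without wild type 1, -0.15 without wild type 3 and -0.18 without Morc2b-/- 4.

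Within libraries, the log2 ratio of Psmb8 to Psmb5 was -3.02 ± 0.16 in wild type and -3.26 ± 0.11 in Morc2b-/- (SD, n = 4), a difference of -0.23 with an exact permutation p of 0.0571 (0.286 adjusted over the 5 ratios). The transcript of Psmb5 is matched elsewhere in the genome over 99.9% of its length, so its count is uncertain. Psmb9 to Psmb6 differed by -0.30 (exact permutation p = 0.257, adjusted 0.429) and Psmb10 to Psmb7 by -0.02 (exact permutation p = 0.857, adjusted 0.857). Psmb11, the subunit of thymus cortex cells, had 0 counts in wild type 4 and at most 6 in any library.

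Genes of immune cells were measured in the same libraries. The 8 leukocyte genes summed to 155 to 181 CPM in wild type and 138 to 200 CPM in Morc2b-/-. Lyz2 and Csf1r made up most of each sum. Ptprc (0.0286 to 0.164 CPM) and Cd74 (0.220 to 0.790 CPM) were near 0. B2m, the light chain of the antigen-presenting complex and an interferon-raised gene, had 184, 108, 112 and 146 CPM in wild type 1 to 4 and 150, 138, 145 and 151 CPM in Morc2b-/- 1 to 4. It was highest in wild type 1, as Psmb8 was. Psmb9 and Psmb10 were instead highest in wild type 3, at 4.25 and 27.4 CPM, where B2m had 112 CPM. Psmb9 overlaps Tap1 and Psmb8 overlaps Gm20496 on the opposite strand. The part of these genes in the spread of the inducible subunits was not tested.

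**Figure D5:**
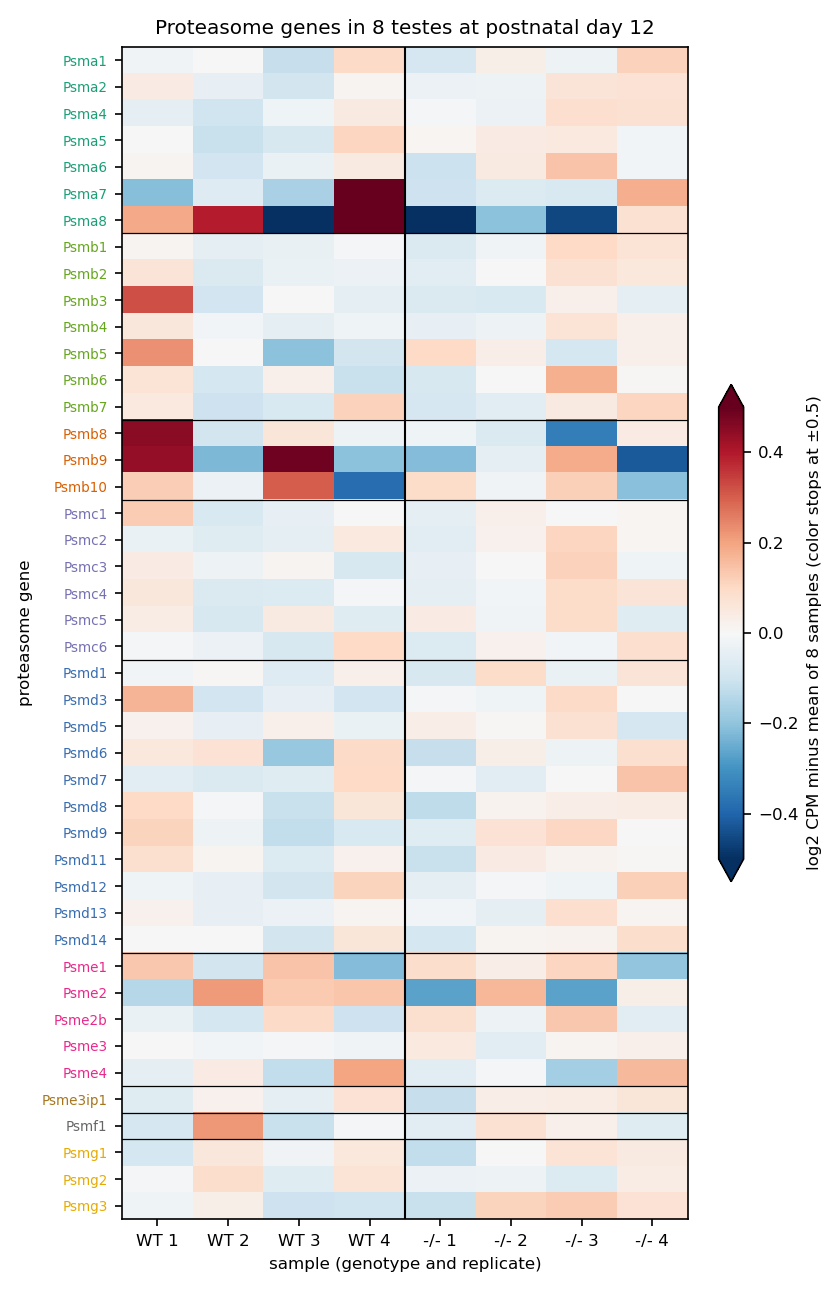
Log2 CPM of each of the 44 proteasome genes tested (rows, grouped by role) in each sample (columns, WT wild type and -/- Morc2b-/-), minus the gene's mean over the 8 samples. Color stops at 0.5 either way; the rows of Psma8, Psma7, Psmb8, Psmb9 and Psmb10 vary most and most of the other rows stay near 0.

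The inhibitor Psmf1 (PI31) had a log2 fold change of -0.01 ± 0.12 (SE) from 142 to 214 counts per library. Of the assembly chaperones, which pair and order the alpha subunits, Psmg1 had 70.5, 77.8, 74.1 and 77.8 CPM in wild type 1 to 4 and 68.9, 75.0, 78.6 and 77.2 CPM in Morc2b-/- 1 to 4. Psmg2 ran from 57.8 to 64.4 CPM. Psmg3 had 22.3, 23.1, 21.0 and 21.1 CPM in wild type and 20.9, 24.4, 24.7 and 23.8 CPM in Morc2b-/-. Its log2 fold change of 0.10 ± 0.08 (SE) was the highest of the 44, and the genotypes overlapped. Psme3ip1 ran from 138 to 158 CPM.

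Beyond the particle, 24 genes of the pathway were listed: ubiquitin receptors and shuttles, deubiquitinases, the maturation factor Pomp, the regulators Nfe2l1 and Nfe2l2, and the segregase Vcp with its cofactors. Of the 23 found, 18 were tested, and 0 passed the adjusted threshold (0 at an unadjusted p under 0.05). The log2 fold change was above 0 in 12 and below 0 in 6, with a median of 0.048, from -0.17 (Fbxo7) to 0.16 (Ubqln2). Pomp had 145, 132, 133 and 157 CPM in wild type 1 to 4 and 136, 137, 144 and 145 CPM in Morc2b-/- 1 to 4.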

How the data were processed

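Whole-testis mRNA from 8 postnatal day 12 males was sequenced with a stranded kit. Per the study's methods, the authors trimmed reads and aligned them with TopHat to mm9 (NCBI37), and the submitters' notes also name Cufflinks and Cuffdiff. The deposited files hold raw counts per RefSeq transcript, 1 file per sample; the counting tool and its strand setting are not given in the sources used here. Each file also tallies reads on no transcript, ambiguous reads and non-unique alignments, which were left out of library totals. Of 35819 transcripts, 35522 matched a gene symbol and 297 did not (0.484% of counts). Counts were summed per symbol to 24651 genes.

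Genotypes were compared with edgeR 4.0.16 (quasi-likelihood test, TMM, filterByExpr, no covariate, all 8 samples) in R 4.3.3 over 13507 genes, with DESeq2 1.42.0 and limma 3.58.1 (voom) as alternatives. SEs are the log2 fold change divided by the root of the F statistic. Exact permutation tests used log2 CPM with a prior count of 2 over all 70 splits. This replaces the authors' Cuffdiff test, which needs reads. The edgeR step was tested on simulated counts. Similar sequence was sought with blastn 2.17.0 (75 bases, 97% identity), and figures were drawn with matplotlib 3.10.9 in Python 3.11.15.

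The proteasome genes, pathway genes and markers were chosen with earlier results of these data known. Per-sample values were given for Psma8, Psma7, the Psme genes, Psmb8 to Psmb11, any gene with an unadjusted p under 0.05, and the highest, steadiest and widest gene of each role. For genes most like Psma8 and Psme4, the 5 highest Pearson correlations of log2 CPM were taken; some of these and 1 marker list (its gene B2m excepted) are not reported here. Psma2, Psmb3, Psmg3, Psmd14, Psme2b, Pomp, Tcam1, B2m, Ldhc, Hormad1, Spo11 and Prdm9 were also given values after these were seen. The proteasome genes named with their r to the leptotene and zygotene sum were chosen likewise.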

Additional observations from a re-analysis of the deposited data

Results flagged for a closer look

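In groups of 4 samples, the highest or lowest value was called apart when its gap to the next, as a share of the group's range, was over Dixon's 95% critical value, which chance gives in about 1 of 20 groups. Of 30 groups of proteasome genes and ratios examined, 2 were called, both for Psma7: wild type 4 at 2.64 CPM (gap 0.830 of the range) and Morc2b-/- 4 at 2.10 CPM (0.884). These values rest on 84 and 61 counts of a gene with 2 listed transcripts, for which reads on both were not counted, and the summed leptotene and zygotene markers were also highest in these samples. The part of depth or stage in this was not tested.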

How the results depend on the processing

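With 4 samples a genotype and a median library of 31684772 counts, differences in low genes such as Psmb8, Psmb9, Psma7 and Psme2 are measured with wide intervals. Psma8 kept its direction in every fit run, from -1.07 (without wild type 3) to -0.38 (without wild type 4) when single samples were left out, and passed the adjusted threshold in none. DESeq2 called 1 gene of all tested (Pkmyt1) in place of 0; the proteasome count was 0 in every fit.

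Leaving out 1 sample at a time turned the direction of small differences: Psme4 ranged from -0.099 to 0.026, its ratio to Psme1 plus Psme2 from -0.17 to 0.081, and the ratio of Psmb10 to Psmb7 from -0.18 to 0.11. Likewise Psma7 ranged from -0.14 to 0.13, Psme1 from -0.057 to 0.074 and Psmb10 from -0.14 to 0.081. The ratio of Psma8 to Psma7 ranged from -0.92 (without wild type 3) to -0.50 and is no measure of their relative levels. Psmb8 ranged from -0.27 to -0.075 and Psmb9 from -0.39 to -0.15. For these ratios, the cause was not tested.

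The labels do not say what the number of a sample stands for. Correlations of the deviations of same-numbered samples were -0.16, 0.24, -0.32 and 0.45 for numbers 1 to 4. When that number was fitted as a replicate block, 0 genes passed the adjusted threshold and 572 an unadjusted p under 0.05, against 249 without it. Psma8 then differed by -0.72 ± 0.22 (SE, adjusted p = 0.985 by edgeR), against -0.84 ± 0.37 without the block. The SE of Psme4 was 0.035 with the block and 0.088 without it. What same-numbered samples shared was not tested. For the next counts, the threshold of 0.05 was set on the adjusted p for genes and on the unadjusted exact p for ratios. Of the main values (gene counts of 0 included), 108 kept their side of the threshold without a change of direction and 8 reversed. The other 2 are the DESeq2 count and the Psma8 to Psma7 ratio without wild type 3 (unadjusted exact permutation p = 0.0286). Of the single-gene values, 112 kept both and 8 reversed.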
